A study of Mus musculus with 24 samples.

Results

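How far ribosome occupancy of each mRNA departed from its RNA level 4 h after restimulation was examined in mouse Th1 cells, the helper T cells known for their interferon gamma. The comparison used 8 of the 24 libraries of the series, in 4 groups of 2 libraries (replicates 1 and 2) named RP 4h, RP 0h, Total 4h and Total 0h. RP libraries hold ribosome-protected fragments (footprints, the stretches of mRNA covered by translating ribosomes), and total libraries hold RNA depleted of ribosomal RNA. For each gene the loading change was taken as the footprint change, RP 4h minus RP 0h, minus the total RNA change, Total 4h minus Total 0h, in log2(FPKM + 1), once within replicate 1 and once within replicate 2. FPKM counts a gene's fragments per kilobase of its model, relative to the size of the library. Genes with at least 1 FPKM in all 8 libraries were kept, which left 8263 of the 9420 genes in the deposited table.

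All groups were Th1 cells derived from peripheral CD4+ T cells of DO11.10 mice, a strain with a transgenic T cell receptor against an ovalbumin peptide. The 4 h groups had been restimulated with dissolved antibodies to CD3, at 1 µg/ml, and to CD28, at 2.5 µg/ml, over a plate coated with goat antibody against hamster immunoglobulin, and the 0 h groups are the starting point. The sources used here give neither the age of the mice nor any pooling of animals. Whether replicates were separate animals or cultures is not labelled, so p-values cover the spread between libraries alone, which may be technical. Inferred depth was 26.2 and 14.1 M reads in RP 4h, 20.3 and 8.87 M in RP 0h and 4.88 M in Total 0h replicate 2, and it was not resolved for the other 3 libraries.

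The labelled cell type was checked against its markers. All 14 Th1 markers were in the table and none was below 1 FPKM in any of the 8 libraries. Markers of CD8 T cells were present too and followed the replicate number: their summed level was 1176 and 215 FPKM in RP 4h, 1170.3 and 249 FPKM in RP 0h, 385 and 56.0 FPKM in Total 4h, and 341 and 55.3 FPKM in Total 0h, in replicates 1 and 2. The 5 of 10 B cell markers in the table summed to 6.57 and 7.52 FPKM in RP 4h against 65.6 and 17.2 FPKM in RP 0h, and to 2.44 and 2.62 FPKM in Total 4h against 14.8 and 3.15 FPKM in Total 0h. The 8 of 15 macrophage and dendritic markers summed to 211 and 171 FPKM in RP 4h, 467 and 217 FPKM in RP 0h, 90.5 and 58.0 FPKM in Total 4h, and 137 and 70.2 FPKM in Total 0h. The 2 of 9 NK cell markers, both also made by effector T cells, summed to 637 and 345 FPKM in RP 4h, 491 and 259.8 FPKM in RP 0h, 247 and 94.1 FPKM in Total 4h, and 120.3 and 53.9 FPKM in Total 0h. The 11 markers of other T helper types summed to 272 and 338 FPKM in RP 4h, 182 and 228 FPKM in RP 0h, and 29.6 to 42.6 FPKM in the total libraries, with Il4, Il17a and Ccr6 among those at or near 0 in at least 1 library. Cd22 was near 0 in RP 4h replicate 1, and Fcgr3 in RP 4h and Total 4h replicate 2. The part of these cells in the results was not tested. In bulk libraries fewer cells of a type and less RNA per cell cannot be told apart.

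A ribosome reads an mRNA only after initiation factors have brought it to the start codon, so an mRNA can sit idle in the cytoplasm and be taken up by ribosomes later without any change in its amount. The best known mRNAs of this kind carry a 5′ terminal oligopyrimidine (TOP) tract, a cytosine at the cap followed by an unbroken run of pyrimidines, and they encode ribosomal proteins, elongation factors and a few other parts of the translation machinery. Signalling through mTORC1, which stimulated T cells use to start growth, releases TOP mRNAs from the repressor LARP1.

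The annotated first bases of 7 mRNAs with a positive loading change in both replicates and of Oaz1, which had a negative one, show what a TOP tract looks like. They are the first 20 bases of a GENCODE M21 transcript on GRCm38, with the opening C and its pyrimidine run in capitals.
Pabpc1: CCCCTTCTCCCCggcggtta
Eef1b2: CTTTTTTTCCCTCagcgctg
Eif3f: CTCTTTCTCggcaagatggc
Rack1: CTTTTTCTCCacagggtcgt
Rpl32: CTTCCTTCTTCCTCggcgct
Rps24: CTCTTTTCCTCCTCTCCagc
Rps27rt: CTTTCCggcggtgacgacct
Oaz1: aaaagtgggcgtcggcgccg

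The runs were 12 bases in Pabpc1 (chr15:36608954-36608973, minus strand), 13 in Eef1b2 (chr1:63177130-63177149, plus strand) and 9 in Eif3f (chr7:108934417-108934436, plus strand). They were 10 bases in Rack1 (chr11:48800360-48800379, plus strand), 14 in Rpl32 (chr6:115808728-115808747, minus strand) and 17 in Rps24 (chr14:24490718-24490737, plus strand). Rps27rt (chr9:114982720-114982739, minus strand) had 6 bases, and the transcript of Oaz1 (chr10:80826656-80826675, plus strand) opened with adenine. These are picked examples, and such a run was not confined to genes with a positive loading change. Ldhb had a run of 12 bases and a mean loading change of -0.47, whose sign changed in some fits with a library left out.

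Across the 8263 genes the loading change was centred on 0, with medians of 0.00 in replicate 1 and 0.01 in replicate 2. Its SD was 0.47 in replicate 1 and 0.39 in replicate 2, and the middle 90% of genes lay from -0.67 to 0.70 and from -0.53 to 0.64. The change was positive in both replicates for 2512 genes (30.4%) and negative in both for 2425 (29.3%), while 3326 (40.3%) had opposite signs or a 0. The median difference between the replicates of a gene was 0.28. Across genes, which are not independent replicates, the replicates correlated with Pearson r = 0.329 and Spearman rho = 0.289. A change of at least 1 in both replicates, 2-fold, was found for 54 genes (0.654%), and one of -1 or lower in both for 13 (0.157%). Of the 54, 40 lay in the highest quartile of genes by level.

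No gene passed the test of the loading change. Of 9021 genes tested with limma, 0 were called higher and 0 lower at an adjusted p below 0.05 (0%), and 241 (2.67%) had an unadjusted p below 0.05. The lowest adjusted p was 0.244 among the genes kept here. With the replicate number as a block, limma called 2 genes higher and 1 lower (0.0222% and 0.0111%), and 502 genes (5.56%) had an unadjusted p below 0.05. Of these 3 genes only Rps27rt had at least 1 FPKM in all 8 libraries (adjusted p = 0.0393). With a block for the replicate number within each kind of library the calls were again 2 and 1 (607 genes, 6.73%, at an unadjusted p below 0.05), and the gene among them with at least 1 FPKM in all 8 libraries was Pabpc1 (adjusted p = 0.023). The values below are therefore descriptions of 2 replicates. The SEs and the fitted values without a library, given below, come from fits with no block, so an offset between the replicates can enter them.

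Genes near the threshold on level looked alike on both sides of it. The 137 genes whose lowest FPKM was 1 to 1.1 had loading changes from -2.22 to 1.23 with a median of 0.02, and the 131 genes at 0.9 to 1 had changes from -1.10 to 1.53 with a median of 0.02.

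**Figure D1:**
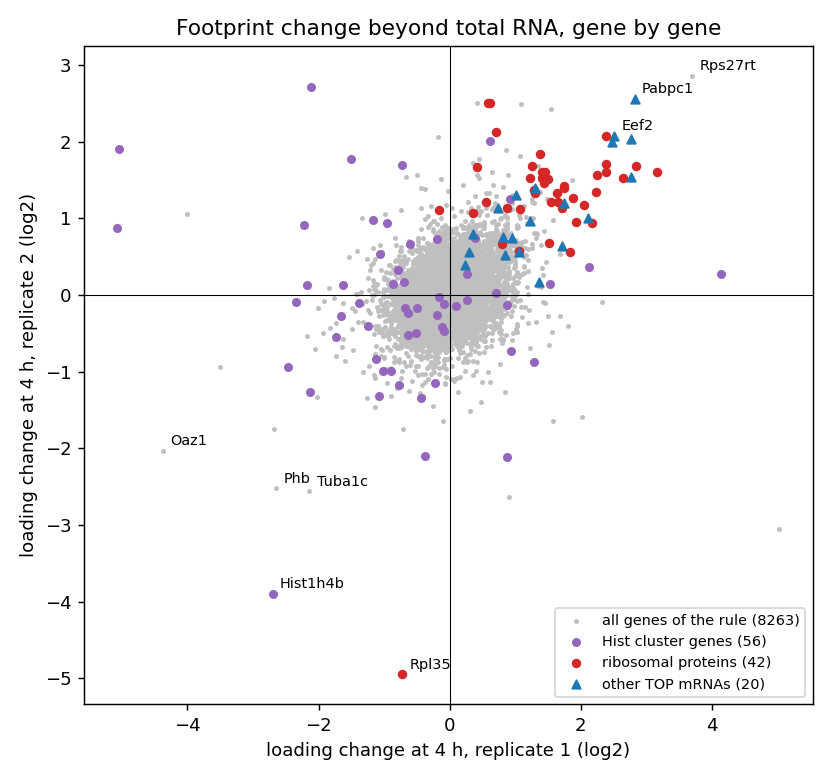
Loading change at 4 h (log2) in replicate 1 (horizontal) and replicate 2 (vertical), 1 point per gene. Grey points are all 8263 genes, red circles 42 ribosomal proteins, blue triangles 20 other TOP mRNAs and purple circles 56 histone cluster genes. All but 2 of the ribosomal proteins and all 20 other TOP mRNAs lie at the upper right, while the histone genes scatter widely.

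Messenger RNAs of cytosolic ribosomal proteins, the building blocks of the ribosome, had the most positive loading changes of the gene lists. Of 79 listed, 48 were in the table and 42 had at least 1 FPKM in all 8 libraries, and 40 of these 42 (95.2%) were positive in both replicates, beside 30.4% of all genes. Their median loading change was 1.47 in replicate 1 and 1.38 in replicate 2, beside 0.00 and 0.01 for all genes. Footprints made up this difference: the median footprint change of the list was 1.70 and 1.24, and the median total RNA change was 0.18 and -0.10. In 39 of the 42 genes total RNA differed by no more than 0.5 in either replicate. An unadjusted p below 0.05 was found for 27 of 47 tested members higher and for 1 lower, none of them called. Among all genes kept, 143 of 8262 tested had such a p higher and 37 lower.

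Rpl8, a protein of the large subunit, had footprints of 2223 and 2159.7 FPKM in RP 4h against 673 and 858 FPKM in RP 0h, and total RNA of 1428 and 1011 FPKM in Total 4h against 1224 and 1152 FPKM in Total 0h. The footprint groups of Rpl8 did not overlap, whereas its total RNA groups did. Its loading changes of 1.50 and 1.52 were nearly the same in the replicates, close to the middle of the list.

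Rpl32, whose start is shown above, had footprints of 1487 and 2667 FPKM in RP 4h against 578 and 893 FPKM in RP 0h, and total RNA of 1978 and 1556 FPKM in Total 4h against 1839.7 and 1675 FPKM in Total 0h. Rpl32 had a loading change of 1.26 and 1.68. The small-subunit proteins Rps26 (3.16 and 1.61), Rps4x (2.38 and 1.71), Rps3a1 (2.39 and 1.60) and Rps9 (2.24 and 1.57) had larger loading changes in replicate 1 than in replicate 2. The stalk proteins Rplp0, Rplp1 and Rplp2, which recruit elongation factors to the ribosome, had 1.07 and 1.12, 1.41 and 1.53, and 1.44 and 1.46.

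Both exceptions were unsteady between replicates. Rpl35 had footprints of 6.78 and 9.65 FPKM in RP 4h against 7.72 and 354 FPKM in RP 0h, and total RNA of 111 and 99.9 FPKM in Total 4h against 75.1 and 107 FPKM in Total 0h. Its loading change was -0.72 in replicate 1 and -4.95 in replicate 2, of which the second rests on the high RP 0h library. Rpl36 had loading changes of -0.16 and 1.11. The 6 ribosomal proteins below 1 FPKM in some library (Rps23, Rps18, Rpl26, Rps27a, Rpl30 and Rpl10) were scattered, for example 5.89 and -2.38 in Rpl10. Ribosomal protein genes have many processed pseudogenes, and reads shared with such copies could be assigned differently, so their levels are uncertain.

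Rps27rt, an intronless copy of the small-subunit gene Rps27 (ENSMUSG00000050621, chromosome 9, 114982366 to 114982739), had the largest smaller replicate value of all genes kept. Footprints of Rps27rt were 3276 and 1835 FPKM in RP 4h against 246 and 261 FPKM in RP 0h, and its total RNA was 1972 and 1522 FPKM in Total 4h against 1938 and 1571 FPKM in Total 0h. For Rps27rt the loading change was 3.70 and 2.86, with a fitted mean of 3.28 ± 0.52 (SE; limma, adjusted p = 0.244, and 0.0393 with the replicate number as a block). Since the copy is near identical to its parent, reads of both may be counted in it.

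TOP mRNAs that do not encode ribosomal proteins behaved alike. All 20 of the 23 listed that were in the table were kept and were positive in both replicates, with a median loading change of 1.27 and 0.98. Their median footprint change was 1.55 and 0.90, and their median total RNA change was 0.12 and -0.03. In 9 of the 20 the loading change was at least 1 in both replicates, beside 0.654% of all genes, and 11 had an unadjusted p below 0.05.

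Pabpc1, the cytoplasmic poly(A)-binding protein, which bridges the tail of an mRNA to its cap (ENSMUSG00000022283, chromosome 15, 36595661 to 36609668), had footprints of 385 and 279.6 FPKM in RP 4h, against 55.2 and 56.1 FPKM in RP 0h. Total RNA of Pabpc1 was 74.5 and 100.0 FPKM in Total 4h, against 76.6 and 120.3 FPKM in Total 0h. Footprints at 4 h thus lay far above both 0 h libraries while the total RNA groups overlapped. The loading change of Pabpc1 was 2.82 in replicate 1 and 2.56 in replicate 2, with a fitted mean of 2.69 ± 0.40 (SE; limma, adjusted p = 0.244, 0.0749 with the replicate block and 0.023 with the block within kind).

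The elongation factors carry aminoacyl-tRNA to the ribosome and move it along. Eef2, which drives translocation (ENSMUSG00000034994, chromosome 10, 81176631 to 81182498), had footprints of 1693 and 1579 FPKM in RP 4h against 442 and 446 FPKM in RP 0h, but total RNA of 1094 and 1172 FPKM in Total 4h against 1634 and 1405 FPKM in Total 0h. Neither pair overlapped, and footprints and RNA of Eef2 lay in opposite directions. For Eef2 the loading change was 2.51 and 2.08, with a fitted mean of 2.30 ± 0.36 (SE; limma, adjusted p = 0.244).

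Eef1a1, which delivers aminoacyl-tRNA, had footprints of 5442 and 4578 FPKM in RP 4h against 875 and 1253 FPKM in RP 0h. Its total RNA was 3851 and 3927 FPKM in Total 4h against 4183 and 4434 FPKM in Total 0h. Loading of Eef1a1 thus differed by 2.76 and 2.04. For Eef1b2, part of the exchange factor that recharges Eef1a1, the footprints were 1536 and 1166 FPKM in RP 4h against 216 and 281 FPKM in RP 0h, and total RNA was 358 and 289.9 FPKM in Total 4h against 279 and 281 FPKM in Total 0h. Eef1b2 had a loading change of 2.47 and 2.00 (fitted mean 2.23 ± 0.35 SE; limma, adjusted p = 0.244). The other subunits of that factor had smaller values, 1.01 and 1.31 in Eef1g and 0.84 and 0.52 in Eef1d.

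Subunits of initiation factor eIF3 that belong to the TOP list had loading changes of 2.76 and 1.54 (Eif3f), 2.11 and 1.00 (Eif3h), 1.23 and 0.96 (Eif3e), 1.06 and 0.56 (Eif3k) and 0.29 and 0.56 (Eif3l). Eif4b, a helper of the cap-bound helicase, had 1.75 and 1.20. Rack1, a protein of the small subunit that also binds kinases, had footprints of 1828 and 1895 FPKM in RP 4h against 619 and 729.6 FPKM in RP 0h, total RNA of 469 and 358 FPKM in Total 4h against 392 and 364 FPKM in Total 0h, and a loading change of 1.30 and 1.40. The nucleolar chaperone Npm1 had 0.74 and 1.14. The lowest mean of the list was that of Btf3, part of the nascent chain complex, at 0.23 and 0.39. Tpt1 and Eif4a1 were not analysed here.

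**Figure D2:**
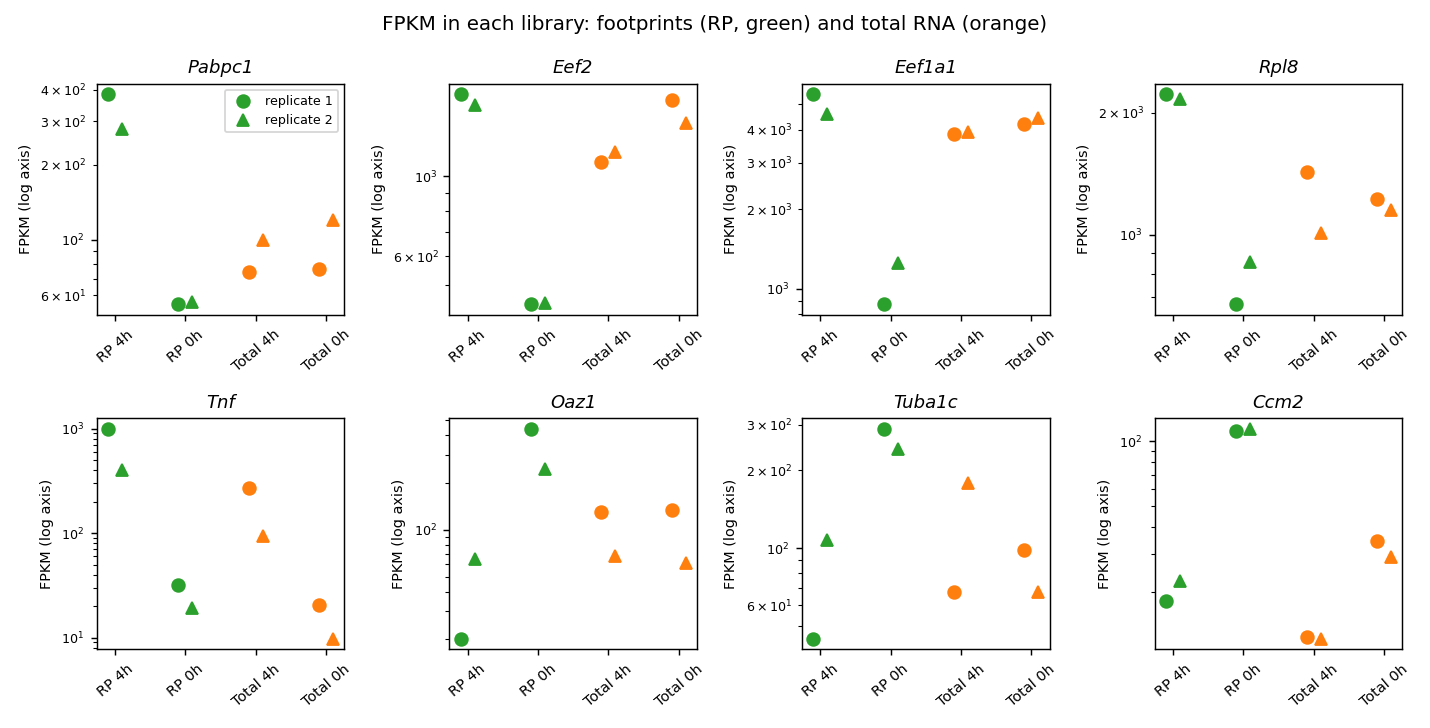
FPKM on log axes in each of the 8 libraries for 8 genes, in the order RP 4h, RP 0h, Total 4h, Total 0h (circles replicate 1, triangles replicate 2). Footprints (green) of Pabpc1, Eef2, Eef1a1 and Rpl8 are higher at 4 h while their total RNA (orange) is close or lower, Tnf is higher at 4 h in both kinds, and footprints of Oaz1, Tuba1c and Ccm2 are lower at 4 h.

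The same loading change can be read from the level of footprints over RNA at each time. The median of footprint minus total RNA level, in log2, for the ribosomal proteins was 0.38 and 0.83 at 4 h, against -1.21 and -0.39 at 0 h. For the other TOP mRNAs it was 1.23 and 0.95 at 4 h, against -0.42 and 0.08 at 0 h. All genes stood at 1.27 and 1.40 at 4 h, against 1.26 and 1.39 at 0 h. Levels of RP and total libraries are scaled separately and by different lengths, so the value for a single time has no absolute meaning. In terms of the summed FPKM of the table, the 48 ribosomal proteins took 3.08% and 3.10% in RP 4h against 0.858% and 1.12% in RP 0h, and 9.53% and 8.67% in Total 4h against 8.87% and 9.20% in Total 0h. The other TOP mRNAs took 1.69% and 1.57% in RP 4h against 0.476% and 0.581% in RP 0h, and 3.38% and 3.95% in Total 4h against 3.69% and 4.17% in Total 0h.

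Newly transcribed RNA, labelled with 4-thiouridine (4sU) in separate libraries, gave another reading. For the ribosomal proteins the median 4sU change at 4 h against 0 h was 1.71 and 1.35, positive in both replicates for 42 of 42, and for the other TOP mRNAs it was 1.20 and 1.01, positive for 20 of 20. All genes had medians of -0.18 and -0.11. Newly made RNA of these genes was thus higher at 4 h by about as much as their footprints, while total RNA stood near its 0 h level. Labelled Pabpc1 RNA was 51.6 and 71.9 FPKM in 4sU 4h against 22.1 and 29.1 FPKM in 4sU 0h.

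The footprints of TOP mRNAs were higher from the first time measured. The RP libraries of 0.5, 1 and 2 h share their 0 h libraries with the comparison at 4 h, so the values are set side by side only. For the ribosomal proteins the median footprint change in replicate 1 was 0.97 at 0.5 h, 1.32 at 1 h, 1.58 at 2 h and 1.70 at 4 h, and in replicate 2 it was 0.72 at 1 h and 1.24 at 4 h. For the other TOP mRNAs it was 0.76, 1.06, 1.19 and 1.55 in replicate 1 at those times, and 0.66 and 0.90 in replicate 2. Total RNA was available at 2 h in replicate 1, where the median loading change was 1.66 for ribosomal proteins and 1.17 for the other TOP mRNAs, and at 1 h in replicate 2, where it was 0.87 and 0.80. Footprints of Pabpc1 in replicate 1 were 55.2, 95.3, 121, 269 and 385 FPKM at 0, 0.5, 1, 2 and 4 h, and those of Eef1a1 were 875, 2673, 3830.2, 4848 and 5442 FPKM.

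**Figure D3:**
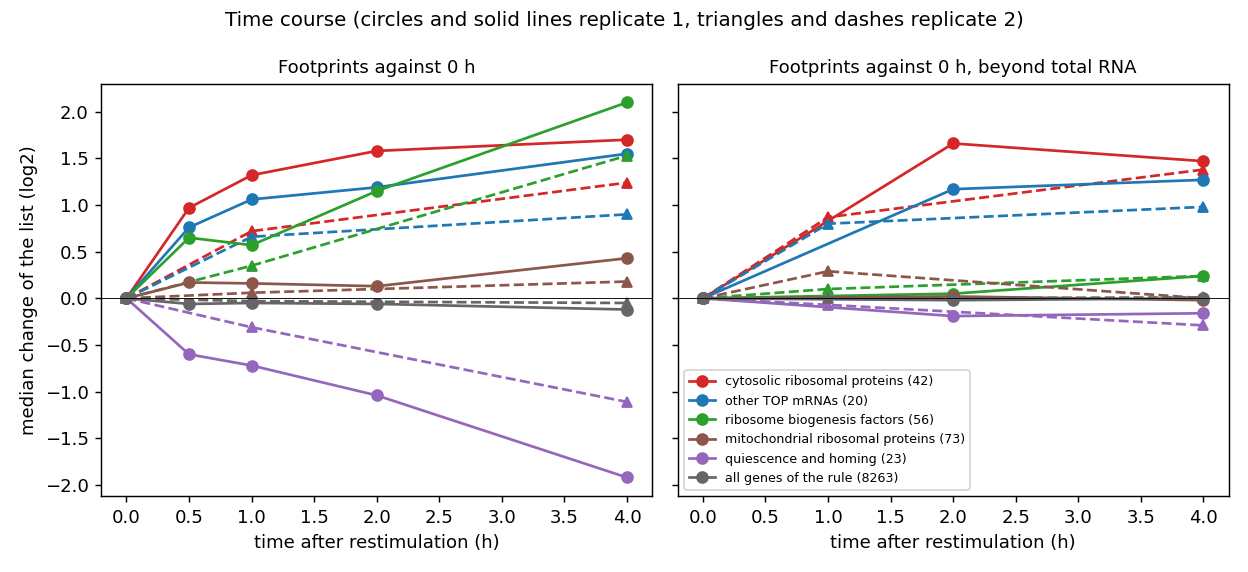
Median change against 0 h (log2) of footprints (left) and of footprints beyond total RNA (right) by time after restimulation, for 5 gene lists and all genes. Circles with solid lines are replicate 1 and triangles with dashes replicate 2. TOP lists are the only 2 of the 5 whose loading medians are above 0.5, while biogenesis factors are high in footprints alone.

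The annotated starts were compared with the loading change. A TOP-like start was a C followed by at least 4 pyrimidines at the first base of any protein-coding GENCODE M21 transcript of the gene tagged as basic. Such a start was present in 361 of 8247 genes (4.38%). It was present in 15 of the 54 genes with a loading change of at least 1 in both replicates (27.8%), in 0 of the 13 at -1 or lower, in 14 of 42 ribosomal proteins (33.3%) and in 7 of 20 other TOP mRNAs (35.0%). By RefSeq starts, where any start given for a gene counted, the shares were 180 of 6647 genes (2.71%), 9 of 39 (23.1%) of the 54 genes, 7 of 30 ribosomal proteins (23.3%) and 3 of 13 other TOP mRNAs (23.1%). Annotated starts can be off by several bases, which matters for a motif at the first base. Among the 8185 genes in neither list, 340 (4.15%) had such a start, and the median loading change was 0.04 with it and 0.00 without it. Within the ribosomal proteins the median was 1.47 with such a start and 1.46 without it.

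Other parts of the translation machinery showed smaller loading changes, although many had more RNA at 4 h. Ribosome biogenesis factors, which make and assemble ribosomes in the nucleolus, had a median footprint change of 2.10 and 1.53 and a median total RNA change of 1.77 and 1.30. Their median loading change was 0.24 in both replicates, with 30 of 56 positive and 4 negative in both. Utp14a, of the small-subunit processome, had the largest smaller replicate value, 0.93 and 0.68. Initiation factors outside the TOP list had a median of 0.19 and 0.07, with 16 of 34 positive and 4 negative, and Eif2s2, the beta subunit of the factor that brings the initiator tRNA, had 1.31 and 0.74, with a fitted value of 0.43 without RP 0h replicate 1. Aminoacyl-tRNA synthetases had 0.26 and -0.01, with 10 of 22 positive and 5 negative, and Qars, the glutaminyl-tRNA synthetase, had 1.05 and 0.89. Mitochondrial ribosomal proteins, whose mRNAs are read in the cytoplasm but belong to another ribosome, had medians of -0.02 and 0.00, with 21 of 73 positive and 22 negative, and Mrpl32 had 0.88 and 0.51.

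Folding chaperones lay between these groups. The median of the 21 members was 0.36 and 0.52, with 16 positive and 2 negative in both replicates. Hsp90ab1, a cytosolic chaperone, had 1.31 and 0.81, the mitochondrial co-chaperonin Hspe1 had 0.95 and 1.12, and the chaperonin subunits Cct2 and Tcp1 had 0.87 and 1.00 and 0.82 and 0.85. An unadjusted p below 0.05 in the positive direction was found for 3 of 21 folding chaperones and 3 of 56 biogenesis factors. It was found for 1 of 34 initiation factors, 1 of 22 synthetases and 1 of 74 mitochondrial ribosomal proteins. In the negative direction it was found for 1 of the 56 biogenesis factors. Among all genes kept and tested, 143 of 8262 had such a p in the positive direction and 37 in the negative one.

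**Figure D4:**
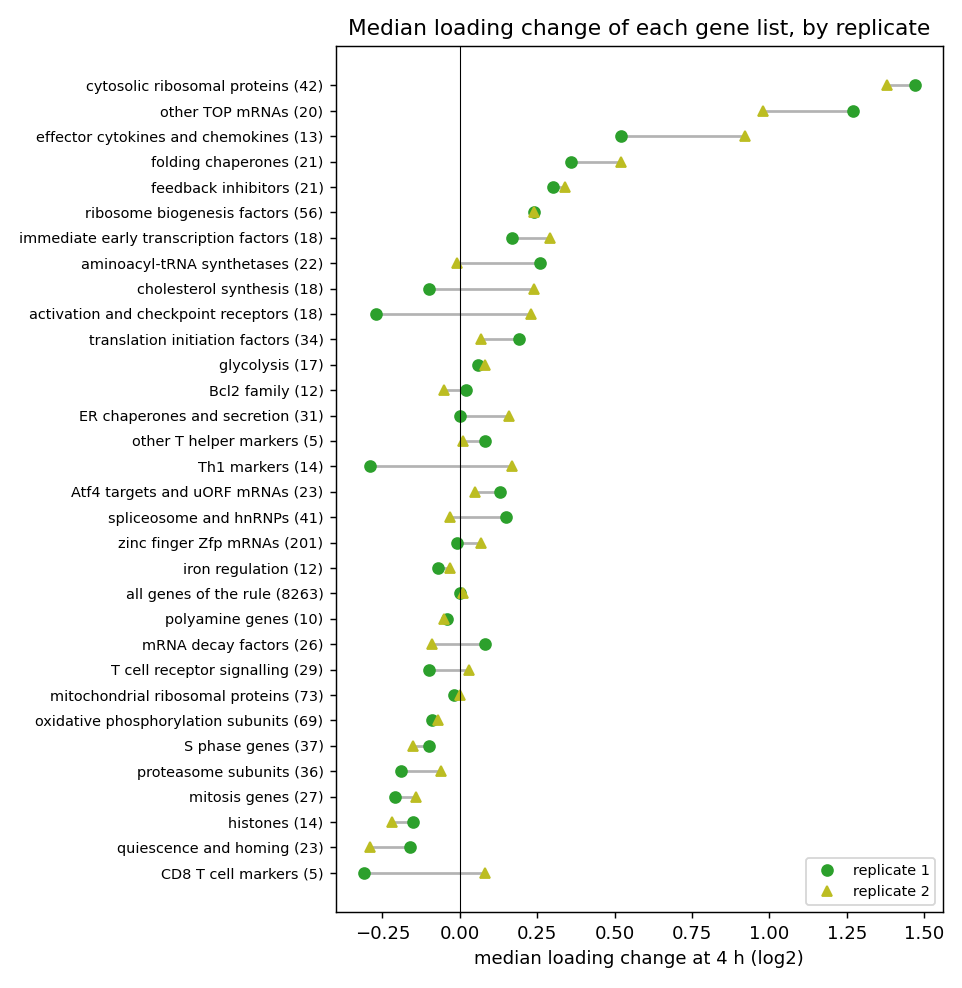
Median loading change at 4 h (log2) of each gene list with at least 5 genes kept, in replicate 1 (circles) and replicate 2 (triangles), with the number of genes kept in brackets. Ribosomal proteins (1.47 and 1.38) and other TOP mRNAs (1.27 and 0.98) have the highest medians in both replicates. Cytokines (0.52 and 0.92) come next, close to the other TOP mRNAs in replicate 2, and the remaining lists run down to medians below 0.

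Of the 54 genes with a loading change of at least 1 in both replicates, 27 encode ribosomal proteins, 9 belong to the other TOP mRNAs and 18 are in neither list. As a group the 54 had a median coding length of 789 bases, beside 1389 for all genes. Their median footprint change was 1.84 and 1.42, their median total RNA change was 0.11 and -0.07, and 40 of them had total RNA within 0.5 of 0 h in both replicates. In 7 of the 54, total RNA was itself higher by more than 0.5 in both replicates. The 18 others were Rps27rt, Serf2, Nop53, Ipo7, Nkiras1, Clcf1, Nfkbid, Batf3, Tnf, Plk3, Osm, Ncln, Wdr89, Tnfsf8, Pfdn5, Carns1, Kctd13 and Trmt13.

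Ipo7, an importin that carries ribosomal proteins into the nucleus, had footprints of 137 and 124 FPKM in RP 4h against 30.1 and 28.0 FPKM in RP 0h. Its total RNA was 108 and 86.6 FPKM in Total 4h against 61.3 and 64.2 FPKM in Total 0h, and the loading change was 1.35 and 1.69 (fitted mean 1.52 ± 0.27 SE; limma, adjusted p = 0.345). Nop53, a factor of large-subunit assembly, had footprints of 132 and 128 FPKM in RP 4h against 58.9 and 61.5 FPKM in RP 0h, and total RNA of 30.7 and 39.2 FPKM in Total 4h against 51.0 and 54.3 FPKM in Total 0h. For Nop53 the loading change was 1.86 and 1.50 (fitted mean 1.68 ± 0.28 SE; limma, adjusted p = 0.274). Like Eef2, it had higher footprints and lower RNA at 4 h, with no overlap in either kind. Serf2 had 1.55 and 2.43, with replicates of RP 4h at 107 and 20.8 FPKM and of RP 0h at 41.4 and 3.13 FPKM, so its level differed more between replicates than between times, and the fitted value of Serf2 ranged from 0.31 without RP 0h replicate 2 to 3.67 without RP 0h replicate 1.

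Most cytokines and feedback genes kept had more RNA together with a positive loading change, and none passed the test. Of 28 effector cytokines and chemokines in the table, only 13 had at least 1 FPKM in all 8 libraries, the others being below it in at least 1. Of the 13, 9 were positive and 1 negative in both replicates, with a median loading change of 0.52 and 0.92, a median footprint change of 2.58 and 3.35 and a median total RNA change of 1.79 and 2.31. Th1 markers, several of them cytokine genes, summed to 39017 and 20966 FPKM in RP 4h against 7762 and 4174 FPKM in RP 0h.

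Tnf, the inflammatory cytokine (ENSMUSG00000024401, chromosome 17, 35199381 to 35202007), had footprints of 992 and 404 FPKM in RP 4h against 31.7 and 19.1 FPKM in RP 0h. Its total RNA was 269.8 and 93.0 FPKM in Total 4h against 20.6 and 9.72 FPKM in Total 0h, so neither kind of library overlapped between times. The loading change of Tnf was 1.28 and 1.20, with a fitted mean of 1.24 ± 1.10 (SE; limma, adjusted p = 1.00, and 0.641 with the replicate number as a block). Its libraries of replicate 1 stood above those of replicate 2 in each group, an offset that can enter this SE, since the fit had no block. The fitted value of Tnf was 0.48 without Total 4h replicate 2, 0.59 without RP 4h replicate 1, 0.73 without Total 0h replicate 1, 1.89 without RP 4h replicate 2 and 2.00 without Total 4h replicate 1. Footprints of Tnf peaked before 4 h, at 2887 FPKM in replicate 1 at 1 h, and its loading change was 1.76 at 2 h in replicate 1 and 1.66 at 1 h in replicate 2.

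Osm, oncostatin M, had loading changes of 1.09 and 2.49, Tnfsf8, the CD30 ligand, had 1.06 and 1.04, and Batf3, a transcription factor of the AP-1 family, had 1.25 and 1.21. The lowest FPKM among the 8 libraries was 1.85 for Osm, 1.46 for Tnfsf8 and 1.02 for Batf3, near the threshold on level. At such levels the added 1 can shrink the footprint and total RNA changes by unequal amounts, and its part in these values was not tested. Among feedback inhibitors, which damp receptor signalling, 15 of 21 were positive and 0 negative in both replicates, with a median of 0.30 and 0.34. Nfkbid, a nuclear inhibitor of NF-kB, had footprints of 143 and 65.9 FPKM in RP 4h against 10.8 and 7.54 FPKM in RP 0h, and total RNA of 79.5 and 37.9 FPKM in Total 4h against 17.3 and 10.8 FPKM in Total 0h. This gave Nfkbid a loading change of 1.48 and 1.25, with fitted values of 0.81 without RP 4h replicate 1 and 0.84 without Total 4h replicate 2. Immediate early transcription factors had a median of 0.17 and 0.29, with 9 of 18 positive and 2 negative, and Egr1 had 0.67 and 0.77, with fitted values of 0.28 without Total 4h replicate 1 and 0.33 with a pseudocount of 0.1.

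Ifng, the cytokine that defines Th1 cells, had footprints of 19196 and 11655 FPKM in RP 4h against 91.9 and 94.0 FPKM in RP 0h, and total RNA of 7340.0 and 1814 FPKM in Total 4h against 42.3 and 25.0 FPKM in Total 0h. The loading change of Ifng, 0.28 and 0.82, was small beside its RNA change of 7.41 and 6.12, and without Total 4h replicate 2 the fitted value was -0.46. The growth regulator Myc behaved likewise, with an RNA change of 3.53 and 3.26 and a loading change of -0.24 and 0.48, and the fitted value was -0.11 without RP 0h replicate 2. The mRNA decay factors, which shorten or destroy cytokine mRNAs, had medians of 0.08 and -0.09. One of them, Zfp36l1, combined footprint changes of opposite sign in the replicates (-0.18 and 0.53) with lower total RNA (a change of -1.07 and -1.02), which gave a loading change of 0.89 and 1.56. With single libraries left out, its fitted value ran from 0.82 without RP 4h replicate 2 to 1.62 without RP 4h replicate 1.

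**Figure D5:**
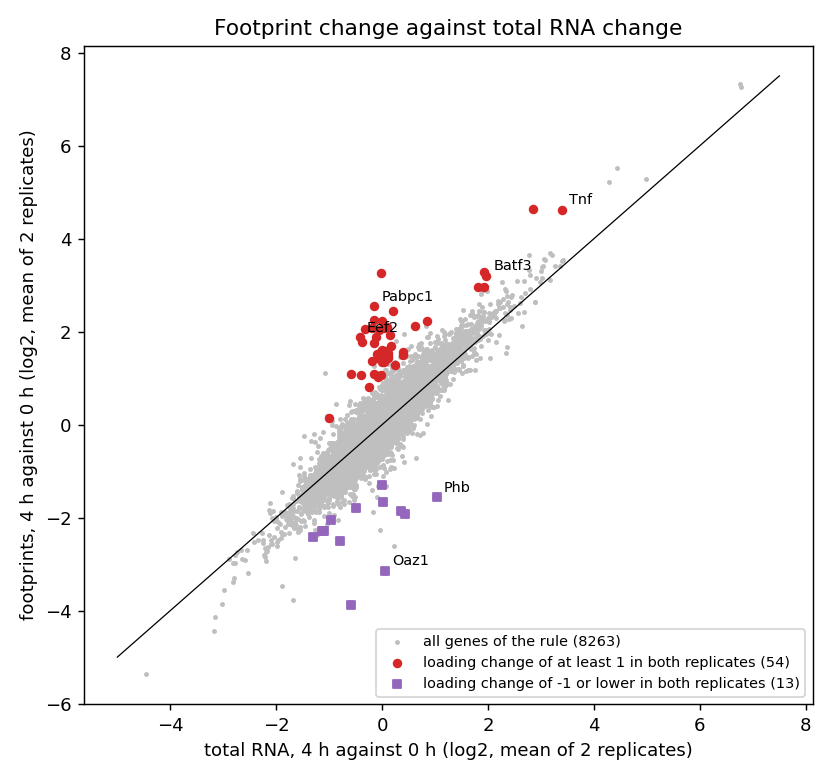
Footprint change against total RNA change at 4 h (log2, mean of 2 replicates), 1 point per gene, with the line of equal change. Red circles are the 54 genes with a loading change of at least 1 in both replicates and purple squares the 13 at -1 or lower. Most red points lie close to a total RNA change of 0, with Tnf and Batf3 among the few far to the right.

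The 13 genes with a loading change of -1 or lower in both replicates shared no single list. They were Hist1h4b, Phb, Tuba1c, Oaz1, Usmg5, Ifitm1, Hist2h3b, Tcta, Rnaset2b, Ccm2, Hist1h2bf, 4930486L24Rik and Cxcr4. Their median loading change was -2.03 and -1.34, their median footprint change -2.40 and -1.79, and their median total RNA change -0.53 and -0.37. Footprints were lower at 4 h by more than 0.5 in both replicates in all 13. None of them was called.

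Oaz1, antizyme, whose synthesis needs a polyamine-sensitive frameshift and which marks ornithine decarboxylase for destruction (ENSMUSG00000035242, chromosome 10, 80826656 to 80829290), had footprints of 20 and 65.2 FPKM in RP 4h against 441 and 244 FPKM in RP 0h. Its total RNA was 130.2 and 67.7 FPKM in Total 4h against 133 and 61.4 FPKM in Total 0h. Footprints of Oaz1 separated the times while total RNA separated the replicates. The loading change was -4.37 and -2.03, with a fitted mean of -3.20 ± 1.08 (SE; limma, adjusted p = 1.00).

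At earlier times the replicates of Oaz1 differed. In replicate 1 its footprints were 441, 428, 60.0, 28.5 and 20 FPKM at 0, 0.5, 1, 2 and 4 h, and in replicate 2 they were 244, 236 and 65.2 FPKM at 0, 1 and 4 h. Of the 9 other polyamine genes kept, 2 were positive and 4 negative in both replicates, with medians of -0.04 and 0.00. Odc1, ornithine decarboxylase, had footprints of 72.8 and 36.8 FPKM in RP 4h against 16.9 and 7.13 FPKM in RP 0h, and a loading change of 0.49 and 0.78, which became -0.04 without Total 4h replicate 2. Azin1, the antizyme inhibitor, had -0.05 and -0.09, and its fitted sign changed in some of the unpaired fits with a library left out.

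Tuba1c, an alpha tubulin (ENSMUSG00000043091, chromosome 15, 99029891 to 99038110), had footprints of 44.5 and 107 FPKM in RP 4h against 289.6 and 242 FPKM in RP 0h, and total RNA of 67.5 and 179 FPKM in Total 4h against 98.2 and 67.5 FPKM in Total 0h. Footprints did not overlap between times, and total RNA did. Tuba1c had a loading change of -2.14 and -2.56, but alpha tubulin genes are near identical in sequence, so reads may have been split among them. Ccm2, a scaffold protein (ENSMUSG00000000378, chromosome 11, 6546887 to 6596744), had the most even values: footprints of 18.1 and 22.6 FPKM in RP 4h against 111 and 114 FPKM in RP 0h, and total RNA of 12.4 and 12.1 FPKM in Total 4h against 34.6 and 29.2 FPKM in Total 0h. Its loading change was -1.14 and -1.08 (fitted mean -1.11 ± 0.27 SE; limma, adjusted p = 0.855), so that footprints were lower by more than the RNA.

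Usmg5, a small subunit of ATP synthase dimers (ENSMUSG00000071528), had footprints of 1.09 and 1.64 FPKM in RP 4h against 7.34 and 7.73 FPKM in RP 0h, and total RNA of 137 and 116 FPKM in Total 4h against 84.7 and 114 FPKM in Total 0h. With a coding length of 174 bases its footprint values rest on few reads. Usmg5 had a loading change of -2.68 and -1.75 (fitted mean -2.22 ± 0.31 SE; limma, adjusted p = 0.244). Phb, prohibitin, had footprints of 1.25 and 11.3 FPKM in RP 4h against 4.09 and 45.7 FPKM in RP 0h; they lay further apart between replicates than between times. Its total RNA was 27.8 and 17.6 FPKM in Total 4h against 9.38 and 11.4 FPKM in Total 0h. Phb had a loading change of -2.65 and -2.52, and -0.98 without RP 0h replicate 2.

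Cxcr4, a chemokine receptor, had footprints of 19.9 and 30.7 FPKM in RP 4h against 178 and 88.0 FPKM in RP 0h, and total RNA of 6.03 and 14.0 FPKM in Total 4h against 23.1 and 19.99 FPKM in Total 0h, with a loading change of -1.32 and -1.0. Tcta had -1.26 and -1.34 and Rnaset2b had -1.14 and -1.46. The fitted value of Rnaset2b was -0.62 without RP 0h replicate 2, and that of Cxcr4 was -0.66 without RP 0h replicate 1 and -0.62 without Total 4h replicate 2. Ifitm1, an interferon-induced membrane protein, had -2.03 and -1.33, and its fitted value of -1.68 became 0.45 without RP 0h replicate 1 and 0.31 without Total 0h replicate 2.

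Histone genes took a large share of the footprint libraries. Genes named Hist, which encode the histones of replicating cells, took 15.1% and 19.3% of the summed FPKM in RP 4h against 29.6% and 30.6% in RP 0h, and 4.33% and 3.77% in Total 4h against 7.08% and 6.96% in Total 0h. FPKM is a share of a library, so this difference bears on the level of every other gene within RP libraries, and its part in the loading changes was not tested. Rescaling the libraries by the median of ratios left the median of the ribosomal proteins at 1.44 and of the other TOP mRNAs at 1.10, beside 1.47 and 1.13 as deposited (means of the replicates). Of 60 Hist genes, 56 were kept. They had a median footprint change of -1.27 and -1.06, a median total RNA change of -0.79 and -0.85, and a median loading change of -0.66 and -0.11, with 26 negative and 8 positive in both replicates.

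Single Hist genes varied greatly. Hist1h4b, a histone H4 gene, had footprints of 90.3 and 1682 FPKM in RP 4h against 1028 and 32528 FPKM in RP 0h, which differ more between replicates than between times, and total RNA of 122 and 90.2 FPKM in Total 4h against 213 and 117 FPKM in Total 0h. Its loading change was -2.70 and -3.90, and the fitted value ranged from -5.79 without RP 0h replicate 1 to -0.81 without RP 0h replicate 2. Copies of histone genes share nearly all of their coding sequence, so the assignment of reads to one copy is uncertain. Hist2h3b (-2.13 and -1.27) and Hist1h2bf (-1.08 and -1.32) were the other 2 among the 13. The fitted value of Hist2h3b ranged from -3.09 without RP 4h replicate 2 to -0.31 without RP 4h replicate 1, and that of Hist1h2bf from -2.06 without RP 0h replicate 1 to -0.34 without RP 0h replicate 2.

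Lists with a negative median had smaller values. Quiescence and homing genes, whose RNA is known to be lost on activation, had a median footprint change of -1.92 and -1.11, a median total RNA change of -1.64 and -0.93 and a median loading change of -0.16 and -0.29, with 3 of 23 positive and 15 negative in both replicates. Pik3ip1, an inhibitor of PI3 kinase, had footprints of 5.30 and 5.96 FPKM in RP 4h against 177 and 75.6 FPKM in RP 0h, total RNA of 1.74 and 1.45 FPKM in Total 4h against 38.2 and 12.8 FPKM in Total 0h, and a loading change of -0.98 and -0.97. S1pr1, the receptor for exit from lymph nodes, had -1.05 and -0.79, and its regulator Klf2 had -0.46 and -0.71. At 1.74 and 1.45 FPKM the added 1 shrinks the change of total RNA more than that of footprints, and the fitted value of Pik3ip1 was -0.62 with a pseudocount of 0.1 and -1.44 with a pseudocount of 5. It was -0.22 without Total 0h replicate 2, -0.37 without RP 0h replicate 1, -1.58 without RP 0h replicate 2 and -1.73 without Total 0h replicate 1. Leaving out Total 4h replicate 2 gave -0.52 for S1pr1, and leaving out RP 0h replicate 2 gave -0.19 for Klf2.

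Genes of the cell cycle were mostly negative by small amounts, and proteasome subunits likewise. S phase genes had a median of -0.10 and -0.15, with 5 of 37 positive and 23 negative in both replicates, and Tk1, thymidine kinase, had -0.74 and -0.61. Mitosis genes had -0.21 and -0.14, with 3 of 27 positive and 18 negative. Proteasome subunits had -0.19 and -0.06, with 2 of 36 positive and 19 negative, and the activator subunit Psme1 had -0.30 and -0.32. Oxidative phosphorylation subunits had -0.09 and -0.07, with 13 of 69 positive and 27 negative. No member of these 4 lists or of the quiescence list had an unadjusted p below 0.05.

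Several mRNAs known for translational control in other settings did not stand apart here. The stress factor Atf4, read through upstream open reading frames, had footprints of 131 and 116 FPKM in RP 4h against 39.4 and 43.4 FPKM in RP 0h, and total RNA of 166 and 166 FPKM in Total 4h against 72.3 and 60.4 FPKM in Total 0h. Its loading change was 0.53 and -0.05, and 9 of 23 genes of the Atf4 and upstream frame list were positive and 7 negative, with medians of 0.13 and 0.05. Iron-regulated mRNAs had medians of -0.07 and -0.03. Their member Fth1, ferritin heavy chain, had -0.62 and 0.00, and the transferrin receptor Tfrc had -0.19 and 0.61. The transcription factor Tbx21, which directs the Th1 fate, had 0.13 and 0.18, and Hif1a, with an annotated TOP-like start, had -0.37 and 0.22. The fitted values of Fth1, Tfrc, Tbx21 and Hif1a changed sign when single libraries were left out, Fth1 to 0.53 without RP 0h replicate 1, Tfrc to -0.10 without Total 0h replicate 2, Tbx21 to -0.10 without Total 0h replicate 1 and Hif1a to 0.37 without RP 4h replicate 1.

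The remaining lists had medians, over the means of the replicates, from -0.34 (CD8 T cell markers) and -0.21 (the histone gene list) to 0.11 (cholesterol synthesis). Positive and negative members in both replicates numbered 15 and 7 of 31 for endoplasmic reticulum chaperones and secretion, 8 and 4 of 17 for glycolysis, 14 and 11 of 41 for spliceosome proteins, 5 and 2 of 18 for cholesterol synthesis, and 70 and 53 of 201 for zinc finger genes named Zfp. For T cell genes they numbered 5 and 9 of 29 in receptor signalling, 4 and 5 of 18 among activation receptors, 5 and 4 of 14 among Th1 markers and 3 and 4 of 12 in the Bcl2 family. The mRNA decay factors had 8 and 7 of 26. The histone gene list, which is not the set of Hist genes above, had 0 and 7 of 14, with H1f0, a linker histone, at -0.66 and -0.92. Markers of other cells were few: 0 and 2 of 5 for CD8 T cells, 0 and 1 of 2 for NK cells, 0 and 2 of 4 for macrophages and dendritic cells, and 3 and 1 of 5 for other T helper types, while none of the B cell markers was kept.

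Leading members of these lists had moderate values. P4hb, which forms disulfide bonds in secreted proteins, had loading changes of 0.88 and 0.91, Mvd, of the mevalonate pathway, had 1.15 and 0.62, and Tra2b, a splicing regulator, had 0.62 and 0.72. With single libraries left out, the fitted value of Tra2b ran from 0.07 without RP 0h replicate 2 and 0.13 without RP 4h replicate 1 to 1.27 without RP 0h replicate 1, and that of Mvd was 0.58 without RP 0h replicate 1. Cd274, the checkpoint ligand PD-L1, had 0.57 and 1.24, and its fitted value was 0.40 without RP 4h replicate 2. Foxp3, the factor of regulatory T cells, had footprints of 11.2 and 10.5 FPKM in RP 4h against 5.80 and 6.97 FPKM in RP 0h, total RNA of 1.19 and 1.21 FPKM in Total 4h against 1.33 and 1.69 FPKM in Total 0h, and a loading change of 0.93 and 0.81 (fitted mean 0.87 ± 0.26 SE; limma, adjusted p = 1.00). On the negative side, Cxcr3, a chemokine receptor of Th1 cells, had -0.90 and -0.42, the cell death gene Bbc3 had -0.29 and -0.79, Ndufa7, of respiratory complex I, had -1.03 and -0.72, and Nusap1, a spindle protein, had -0.70 and -0.51. With single libraries left out, in fits that did not pair the replicates, the fitted values of these 4 moved in both directions. The smallest in size were -0.08 for Cxcr3 without RP 0h replicate 1 and -0.28 for Bbc3 without RP 0h replicate 2. Without RP 4h replicate 1 they were -0.35 for Ndufa7 and 0.00 for Nusap1.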

How the data were processed

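The deposited values were FPKM per gene, given by the authors with 2 decimals for 24 libraries. The submitters' processing notes name featureCounts (Subread 1.4.6-p3) and GRCm38. The sources used here give no aligner, annotation or strand setting, so overlapping and antisense genes cannot be told apart. Depth was inferred from the smallest steps between values (up to 8 reads, tolerance 0.1 read, at least 75% of steps whole), and 5 of the 8 libraries were resolved. Of the gene identifiers, 9412 matched a symbol and 8 did not.

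Loading changes were computed in log2(FPKM + 1). The added 1 shrinks the footprint and total RNA changes of low genes by unequal amounts, so a loading change can be understated or overstated. The test was limma 3.58.1 (R 4.3.3), as an interaction over 8 RP and 6 total RNA libraries (9 groups, 5 residual degrees of freedom, trended prior variance, genes averaging at least 1 FPKM in each kind, Benjamini-Hochberg adjustment). The fit was tested on simulated data. Deviations of libraries with the same replicate number correlated in 10 of 10 pairs of groups (r from 0.395 to 0.737, median 0.568), so from the data, not the labels, the numbers were read as pairs, and values with the number as a block stand where they change a call.

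Named genes were the 12 with the largest positive and the 12 with the largest negative smaller replicate value, the leading member of each of 34 gene lists, and a fixed set of activation and translation genes, some of which are not reported here. Others, such as Rpl8, Rpl32, Rpl35, Rplp0, Ipo7, Nop53, Osm, Batf3, Hsp90ab1, the further TOP list members and the calls under alternatives, were chosen after their values were seen. The members and lists were chosen with earlier results of these data known. Transcript starts came from GENCODE M21, added after seeing the data, and from RefSeq promoters. Alternatives were other pseudocounts, scaling, filters, fits and each library left out in turn.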

Additional observations from a re-analysis of the deposited data

How the results depend on the processing

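The count of called genes was 0 under median-of-ratios scaling, a pseudocount of 0.1, no filter, at least 1 FPKM in all 8 libraries, only the 8 libraries of 0 and 4 h, and with each of the 8 libraries left out in turn (0 to 0 in total, higher and lower). It was 3 (2 higher, 1 lower) with a pseudocount of 5, with the replicate block and with the replicate block within kind, and 2 (1 higher, 1 lower) without the trend, where Eef2 had an adjusted p of 0.0436. The replicate block changed no other call among the named genes than those of Rps27rt (3.28, adjusted p = 0.0393) and, within kind, Pabpc1 (2.69, adjusted p = 0.023). Calls outside the level filter under the block were Ccl1, higher, and Nacc2, lower. At least 5 FPKM in all 8 libraries left 1363 genes positive and 1474 negative in both replicates of 4825. Of 79 named genes, 0 changed direction under the other 9 alternatives, of which only the pseudocounts and the scaling can alter a fitted value. The fits with a library left out did not pair the replicates, so an offset between replicates can enter them. In those fits 25 of the 79 genes changed direction. Their lowest and highest values were -3.81 and 0.45 for Ifitm1, -1.27 and 0.33 for Ldhb, 0.00 and 0.89 for Ireb2, -1.21 and 0.00 for Nusap1, -0.20 and 0.65 for Cblb, -1.81 and 0.54 for Cd8a, -1.01 and 0.16 for Nkg7, -1.95 and 0.94 for Cd74, -0.04 and 1.31 for Odc1, -0.58 and 0.44 for Azin1, -0.18 and 0.26 for Atf5, -0.59 and 0.21 for Ppp1r15a, -0.11 and 0.35 for Myc, -0.46 and 1.56 for Ifng, -0.05 and 1.17 for Fos, -0.39 and 0.33 for Jun, -0.10 and 0.61 for Irf4, -0.10 and 0.52 for Tfrc, -1.15 and 0.53 for Fth1, -0.76 and 0.90 for Slc2a1, -0.20 and 0.77 for Slc7a5, -0.52 and 0.37 for Hif1a, -0.05 and 0.61 for Nfkbia, -0.36 and 0.35 for Cd3e, and -0.10 and 0.40 for Tbx21. Of 132 list medians recomputed, 29 moved and 6 changed sign, of lists whose medians lay between -0.03 and 0.09. The cause of these changes was not tested. With 2 libraries a group and, at the lowest resolved depth, 4.88 M reads, small loading changes were not detectable. Large changes at high FPKM were not called in the main fit either, such as 3.28 for Rps27rt (limma, adjusted p = 0.244).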

Other observations

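Genes below 1 FPKM in some of the 8 libraries held the largest loading changes. The chemokine Ccl1 had footprints of 324 and 144 FPKM in RP 4h against 0.87 and 0.00 FPKM in RP 0h, and total RNA of 7.80 and 3.63 FPKM in Total 4h, listed at 0 in both Total 0h libraries. Its loading change was 4.30 in replicate 1 and 4.97 in replicate 2 (limma, adjusted p = 0.504, and 0.0113 with the replicate block). Il2, the T cell growth factor, had footprints of 124 and 161 FPKM in RP 4h against 0.00 and 0.88 FPKM in RP 0h, total RNA of 16.8 and 8.43 FPKM in Total 4h against 0.00 and 0.18 FPKM in Total 0h, and loading changes of 2.82 and 3.43 (limma, adjusted p = 0.287). Ccl1 and Il2 were below 1 FPKM in all 0 h libraries, so they met the mean level required for the test only through libraries after 0 h. Other cytokines of this kind had 2.94 and 3.86 (Il4), 2.35 and 3.00 (Il3), 2.62 and 2.39 (Xcl1) and 1.91 and 1.80 (Lif). With total RNA near 0 FPKM, the added 1 shrinks the change of total RNA more than that of footprints, so these values depend on the pseudocount. With a pseudocount of 0.1 the fitted value was 3.67 for Ccl1 and 2.66 for Il2, against 4.63 and 3.12 with the added 1.

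Nacc2, a transcriptional repressor, had a negative value that rested on the added 1. Footprints of Nacc2 were 0.95 and 1.01 FPKM in RP 4h against 43.5 and 36.4 FPKM in RP 0h, and its total RNA was 0.11 FPKM in both Total 4h libraries against 3.60 and 3.63 FPKM in Total 0h. The loading change was -2.46 and -2.16, with a fitted mean of -2.31 ± 0.25 (SE; limma, adjusted p = 0.0863, and 0.0113 with the replicate block). At 0.11 FPKM the added 1 nearly hides the total RNA change: the loading change was -0.48 and -0.13 with no pseudocount, an alternative chosen after seeing the data, and the fitted value was -1.06 with a pseudocount of 0.1 (limma, adjusted p = 1.00). Nacc2 met the mean level of total RNA required for the test only through libraries before 4 h. Footprints of Nacc2 in replicate 1 were 43.5, 27.9, 21.6, 5.65 and 0.95 FPKM at 0, 0.5, 1, 2 and 4 h. Genes in this section were chosen after their values were seen.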
